A study of Mus musculus with 12 samples.

Results

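The loss of Tbx5 was examined in hearts that already lacked Nkx2-5, by setting hearts labelled Tbx5 KO;Nkx2-5 KO (double KO hereafter) against hearts labelled Nkx2-5 KO. All 6 samples carried the Nkx2-5 KO, so the groups differ, per the labels, in Tbx5 alone. The comparison used 3 arrays of each group, out of 12 arrays in the study, and every probe set that carried exactly 1 gene symbol (21789 of 35557 probe sets), which gave 19938 genes. The study measured RNA of mouse hearts dissected at E8.75, the embryonic stage at which the heart tube loops, on 3 arrays each of double KO, Nkx2-5 KO, Tbx5 KO and WT genotype, numbered as biological replicates in the titles. Neither the alleles, nor the cells in which a gene was removed, nor the number of embryos in a sample are given in the labels. Levels are the deposited log2 expression values, so levels and changes are on a log2 scale. Changes are differences of group means in log2 units, followed by ± their standard error (SE) from a limma fit over all 12 arrays (n = 3 arrays a group). A gene was called when its two-sided p, after Benjamini-Hochberg adjustment over all 19938 genes, was under 0.05.

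Tbx5 is a T-box transcription factor of the heart's inflow region, atria and left ventricle. Nkx2-5 is a homeodomain factor present in nearly all early heart muscle, and the proteins bind DNA near each other and near Gata4 at many heart genes. Tbx5 is known as an activator of genes of chamber muscle, such as Nppa, and of genes of the sinus region and the conduction system, where Nkx2-5 restrains the pacemaker programme. Hearts without Nkx2-5 keep a beating tube, so they show what Tbx5 loss does where that partner is absent.

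Array medians lay between 8.05 and 8.25 over the study, and the Pearson correlation of arrays, taken across probe sets that are no independent replicates, was 0.969 to 0.982 among double KO arrays, 0.981 to 0.984 among Nkx2-5 KO arrays and 0.969 to 0.979 between them. The standard deviation over probe sets was smaller on the double KO arrays (2.09, 2.05 and 2.10) than on the Nkx2-5 KO arrays (2.15, 2.16 and 2.13). The Tbx5 probe set read 10.31, 10.65 and 10.83 in double KO hearts and 10.53, 10.15 and 10.29 in Nkx2-5 KO hearts, a change of 0.27 ± 0.15 (adjusted p = 0.301). The Nkx2-5 probe set read 9.05, 9.21 and 8.97 in double KO hearts and 8.96, 8.72 and 9.13 in Nkx2-5 KO hearts (0.14 ± 0.11, adjusted p = 0.464). Values of the groups overlapped for both genes, and since the arrays may read parts of a gene that the mutation spares, they are no check of the genotypes. Heart muscle RNA was abundant in both groups, with Actc1 (cardiac actin) at 14.15 to 14.16 in double KO hearts and 14.08 to 14.10 in Nkx2-5 KO hearts. Of 4 sex-linked genes, limma called 0, and 0 had an unadjusted p under 0.05. Their mean was 8.57 to 9.11 on Nkx2-5 KO and 8.76 to 9.29 on double KO arrays. It was lower, 7.26 to 8.08, on WT and 7.27 to 7.51 on Tbx5 KO arrays. The part of sex in differences between hearts with and without Nkx2-5 was not tested.

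With the values as deposited, many more genes were called lower than higher in double KO hearts, a balance that changed with scaling as given below. Of 19938 genes, 1109 (5.56%) were called, 907 lower (4.55%) and 202 higher (1.01%) in double KO hearts. At least 1 log2 unit separated the groups for 159 of the lower genes (0.797%) and 25 of the higher genes (0.125%). Values of the groups did not overlap for 1103 of the 1109 called genes, against 5199 of all genes (26.1%). Calls and ranges come from the same values, so separate ranges, here and below, describe a called gene and add no support to its call. Without any 1 array of the study, 385 genes kept their call, 335 lower and 50 higher. The total was 524 without Nkx2-5 KO replicate 1 (443 lower, 81 higher), 558 without Nkx2-5 KO replicate 2 (460 and 98) and 521 without double KO replicate 2 (432 and 89).

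The balance between lower and higher genes depended on how the arrays were scaled. After the deposited values were quantile-normalized again, 583 genes were lower and 414 higher, so that lower genes made up 58.5% of the calls, against 81.8% with the values as deposited. The called genes shared by both scalings numbered 551 lower and 162 higher. Median-centring the arrays gave 862 lower and 173 higher genes. The median change over all genes was 0.04 as deposited and 0.03 after quantile normalization again. Ranked by mean level into 10 equal groups of genes, the dimmest group had a median change of 0.08 and the brightest a median of -0.13, and quantile normalization again left -0.0008 and 0.01. Calls of lower genes came mostly from bright genes, with 211 in the brightest group and 1 in the dimmest. What made the spread of the double KO arrays smaller was not tested.

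**Figure D1:**
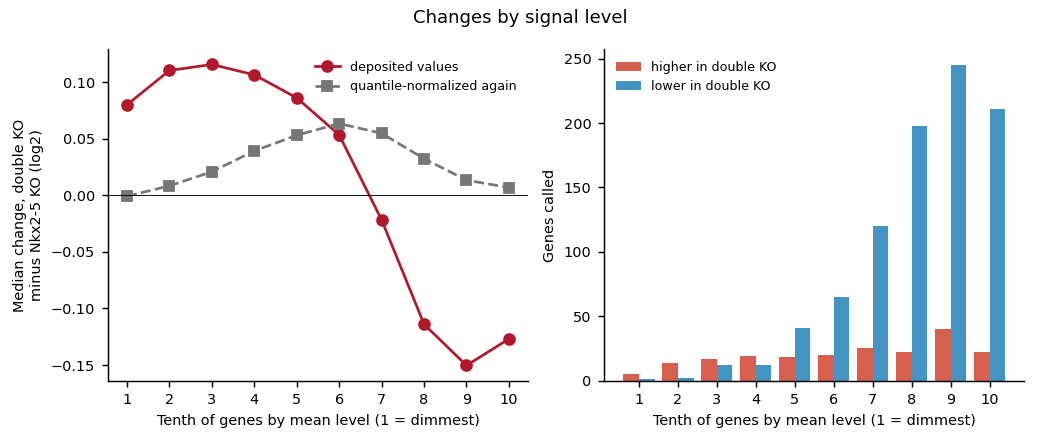
Change by signal level. Left, median log2 change (double KO minus Nkx2-5 KO) in 10 equal groups of genes, for the deposited values (circles) and after quantile normalization again (squares). Groups are ranked by mean level over the 6 arrays compared, from dimmest (1) to brightest (10). Right, number of genes called higher and lower in double KO hearts in each group. The median change of the deposited values runs from 0.08 in the dimmest group to -0.13 in the brightest, and 211 lower genes lie in the brightest group.

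The called genes with the deepest falls were the calcium sensor gene Vsnl1, the calcium channel gene Cacna2d2, the growth factor gene Bmp10 and the peptide hormone gene Nppa. Vsnl1 (probe set 10399407), which encodes visinin-like protein, read 7.83, 7.67 and 7.62 in double KO hearts and 12.79, 12.61 and 12.68 in Nkx2-5 KO hearts. It was the largest fall of all, -4.99 ± 0.19 or 31.7-fold (adjusted p = 4.07e-08), and the group ranges were far apart. Cacna2d2 (10588592), an auxiliary subunit that brings voltage-gated calcium channels to the membrane, read 8.48, 8.38 and 8.13 in double KO hearts and 12.39, 11.82 and 12.28 in Nkx2-5 KO hearts (-3.83 ± 0.15, 14.3-fold, adjusted p = 4.83e-08). Bmp10 (10539802), a ligand that keeps trabecular muscle growing, read 7.39, 7.21 and 6.92 in double KO hearts, against 11.09, 10.34 and 10.65 in Nkx2-5 KO hearts. Its change was -3.52 ± 0.21 (11.5-fold, adjusted p = 4.64e-06). Nppa (10510265), the gene of atrial natriuretic peptide, read 8.01, 8.37 and 8.02 in double KO hearts and 11.26, 10.08 and 10.82 in Nkx2-5 KO hearts (-2.59 ± 0.26, 6.02-fold, adjusted p = 0.000209). In each of these 4 genes every double KO array lay below every Nkx2-5 KO array, which was a condition for the list of deepest falls. From arrays of whole hearts, fewer cells of a type and less RNA per cell cannot be told apart, and this holds for every change below.

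Tbx5 and other T-box factors bind sites built on the letters AGGTGT, which read as ACACCT on the other strand. Nkx2-5 binds AAGTG, which reads as CACTT on the other strand. The windows of Nppa and Bmp10, which fell together, and of Tdgf1, which rose, are shown because they differ in these letters. Each runs from 250 bases before to 50 bases after the annotated gene start (RefSeq, GRCm38.p6), is written 5′ to 3′ on the gene's strand, and has the matches to either motif on both strands in capitals. They lie at chr4:148000472-148000771 (plus strand) for Nppa, chr6:87428744-87429043 (plus strand) for Bmp10 and chr9:110946109-110946408 (minus strand) for Tdgf1.
Nppa: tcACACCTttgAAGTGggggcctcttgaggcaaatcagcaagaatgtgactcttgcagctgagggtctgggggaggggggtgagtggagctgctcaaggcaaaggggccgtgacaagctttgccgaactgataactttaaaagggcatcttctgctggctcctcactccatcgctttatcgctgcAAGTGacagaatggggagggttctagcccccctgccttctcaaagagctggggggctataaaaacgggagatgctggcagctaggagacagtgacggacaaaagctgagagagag
Bmp10: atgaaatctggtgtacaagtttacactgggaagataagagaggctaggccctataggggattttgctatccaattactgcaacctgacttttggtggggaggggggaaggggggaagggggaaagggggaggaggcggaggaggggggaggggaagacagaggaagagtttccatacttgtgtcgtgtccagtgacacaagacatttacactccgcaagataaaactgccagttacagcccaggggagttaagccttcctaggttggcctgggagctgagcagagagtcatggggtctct
Tdgf1: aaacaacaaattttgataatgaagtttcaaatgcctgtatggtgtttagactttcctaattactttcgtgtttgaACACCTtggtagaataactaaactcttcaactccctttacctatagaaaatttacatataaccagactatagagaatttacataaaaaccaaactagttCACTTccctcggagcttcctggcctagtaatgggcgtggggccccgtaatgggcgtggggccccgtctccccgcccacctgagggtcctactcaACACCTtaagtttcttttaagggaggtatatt
The Nppa window held 1 T-box match at -248 and NK2 matches at -239 and -65, counted from the gene start, and none of these overlapped. Bmp10 held no match to either motif. Tdgf1 held T-box matches at -175 and 19 and an NK2 match at -76. Windows of Vsnl1, Cacna2d2 and Rgs6 held neither motif. Of the tested genes, 15563 had such a window, and 14.5% of them held the T-box motif, as did 12.3% of 739 lower genes and 14.9% of 154 higher genes. A gene with several windows counted if any of them held the motif. The NK2 motif was held by 48.8% of all genes with a window, 49.3% of the lower genes and 46.8% of the higher genes. A GATA motif, AGATAA or its reverse complement TTATCT, was held by 10.8% of all genes with a window, 6.22% of the lower genes and 11% of the higher genes. A match is a string of letters and not a shown binding site.

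**Figure D2:**
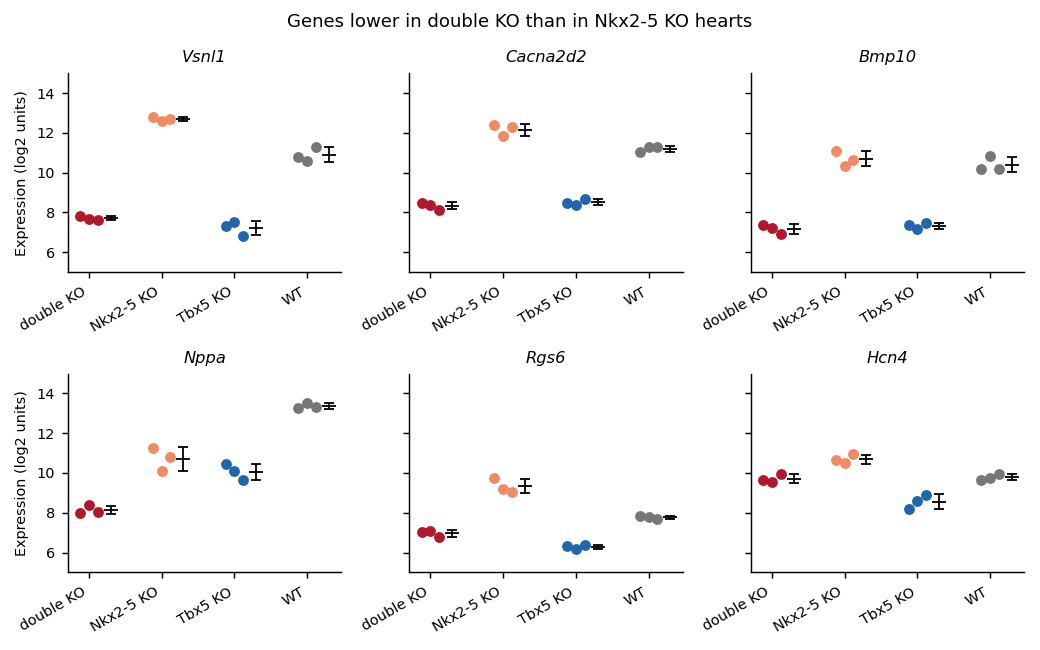
Expression level (log2 units) of 6 genes lower in double KO than in Nkx2-5 KO hearts. Each dot is 1 array, in the order double KO, Nkx2-5 KO, Tbx5 KO and WT, and the bar beside the dots is the mean ± SD of 3 arrays. Vsnl1 lies at 7.62 to 7.83 in double KO hearts and at 12.61 to 12.79 in Nkx2-5 KO hearts.

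Other genes among the 12 deepest falls with separate ranges included Rgs6, which curbs G-protein signals in pacemaker cells, at 7.04, 7.09 and 6.78 in double KO hearts and 9.74, 9.20 and 9.06 in Nkx2-5 KO hearts (-2.36 ± 0.16, adjusted p = 6.87e-06). Cck, the gene of the peptide cholecystokinin, read 7.51, 7.91 and 7.69 in double KO hearts and 10.14, 9.80 and 9.83 in Nkx2-5 KO hearts (-2.22 ± 0.18, adjusted p = 3.89e-05). Angpt1, a ligand that heart muscle sends to the endothelial receptor Tek, fell by 2.14 ± 0.19 to 6.82, 7.16 and 7.31 in double KO hearts, against 9.39, 8.89 and 9.42 in Nkx2-5 KO hearts (adjusted p = 0.0001). Of these 3 genes Rgs6 fell furthest. Ppp1r17 (a phosphatase inhibitor, -2.09 ± 0.13), Atp8a1 (a phospholipid flippase, -2.08 ± 0.16), Cyria (-2.07 ± 0.19) and Fras1 (a basement membrane protein, -2.0 ± 0.18) fell as well. Hbb-bh1, an embryonic globin gene, fell by 2.27 ± 0.56 (adjusted p = 0.0339), and its call ended without Nkx2-5 KO replicate 1 (0.125) or 3 (0.0853), without double KO replicate 1 (0.0759) or 2 (0.135), without Tbx5 KO replicate 1 (0.0508), with only the 6 arrays compared (0.0607) and after quantile normalization again (0.0515).

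Of 23 measured genes of the inflow tract, atria and pacemaker, 8 (34.8%) were lower and 2 (8.7%) higher, against 4.55% and 1.01% of all genes. The median change was -0.20, against 0.04 for all genes. The lists named here and below were chosen with earlier results of these data known, so their shares are given as descriptions with no test. Hcn4, the pacemaker channel, read 9.63, 9.55 and 9.96 in double KO hearts and 10.63, 10.48 and 10.94 in Nkx2-5 KO hearts (-0.97 ± 0.18, adjusted p = 0.00851). Its ranges did not overlap. Tbx3, a T-box repressor that keeps pacemaker tissue from becoming chamber muscle, read 9.09, 8.57 and 9.36 in double KO hearts and 9.96, 9.93 and 9.77 in Nkx2-5 KO hearts (-0.88 ± 0.16, adjusted p = 0.0076). Nr2f2, a nuclear receptor of atrial identity, fell by 1.20 ± 0.24 (adjusted p = 0.0114), and was no longer called without Nkx2-5 KO replicate 1 (0.0509) or double KO replicate 2 (0.0553). Wnt2, a signalling ligand of the sinus region, fell by 1.1 ± 0.19 and Stard10, a lipid transfer protein, by 0.98 ± 0.13. Cacna1d, a calcium channel pore of pacemaker cells, fell by 0.73 ± 0.17 (adjusted p = 0.0272), and that call ended without Nkx2-5 KO replicate 1 (0.11) or 2 (0.0716) or double KO replicate 1 (0.0738) or 2 (0.078). The members that rose were Bmp4 (0.87 ± 0.19) and Gata6 (0.48 ± 0.11). Bmp4 lost its call without Nkx2-5 KO replicate 1 (0.0598) or 3 (0.0569) or double KO replicate 2 (0.0749), and Gata6 without Nkx2-5 KO replicate 1 (0.0542) or 2 (0.0984), without double KO replicate 2 (0.102) or 3 (0.0578) and with only the 6 arrays compared (0.0903). Isl1, a factor of sinus tissue and heart progenitors, overlapped between the groups, at 10.65, 10.80 and 11.79 in double KO hearts and 11.03, 11.54 and 10.89 in Nkx2-5 KO hearts (-0.07 ± 0.31).

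In chamber and trabecular muscle, 4 of 22 genes (18.2%) were lower and 1 (4.55%) higher, against 4.55% and 1.01% of all genes (median -0.28). After quantile normalization again 4 were lower and 2 higher. Besides Bmp10 and Nppa, the lower genes were Bves and Popdc3, whose Popeye domain proteins bind cyclic AMP in the muscle membrane. Bves read 9.45, 9.44 and 9.27 in double KO hearts and 10.50, 10.19 and 10.36 in Nkx2-5 KO hearts (-0.96 ± 0.12, adjusted p = 0.000885), and Popdc3 changed by -0.93 ± 0.09. Nrg1, the endocardial growth factor, rose by 0.45 ± 0.12 (adjusted p = 0.0479), and lost its call in 11 of 20 alternatives run, with adjusted p up to 0.174 (without double KO replicate 2). Nppb, the B-type relative of Nppa, was -0.67 ± 0.26 (adjusted p = 0.155), and Gja5, a connexin of atrial and conduction cells, was -0.34 ± 0.36 (adjusted p = 0.604). Neither gene was called.

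Contractile genes went both ways. Of 39 sarcomere and myofibril genes, 5 (12.8%) were lower and 2 (5.13%) higher, against 4.55% and 1.01% of all genes, with a median of -0.02. After quantile normalization again 4 were lower and 5 higher. The lower count was 3 without Nkx2-5 KO replicate 1 or double KO replicate 2. Myh6, the alpha myosin heavy chain, read 12.05, 12.11 and 11.84 in double KO hearts and 13.04, 12.51 and 13.02 in Nkx2-5 KO hearts (-0.86 ± 0.14, adjusted p = 0.00453). Myl2, the ventricular myosin light chain, read 13.02, 13.09 and 12.85 in double KO hearts and 13.56, 13.64 and 13.53 in Nkx2-5 KO hearts (-0.59 ± 0.09, adjusted p = 0.0031). Tnni3, the adult heart's troponin I, fell by 0.49 ± 0.09. Mylk3, the kinase of cardiac myosin light chain, went the other way, at 11.08, 10.95 and 10.96 in double KO hearts and 10.13, 10.01 and 10.12 in Nkx2-5 KO hearts (0.91 ± 0.10, adjusted p = 0.000433).

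Among 23 core cardiac transcription factors, 4 (17.4%) were lower and 2 (8.7%) higher, against 4.55% and 1.01% of all genes (median 0.11). That split turned to 3 lower and 6 higher after quantile normalization again. Hopx, a homeodomain protein of differentiating muscle, read 8.92, 8.77 and 9.12 in double KO hearts and 9.98, 9.73 and 9.81 in Nkx2-5 KO hearts (-0.90 ± 0.11, adjusted p = 0.000916). Myocd, the coactivator of muscle genes, read 10.72, 10.82 and 10.56 in double KO hearts and 9.96, 9.89 and 9.87 in Nkx2-5 KO hearts (0.80 ± 0.10, adjusted p = 0.000791). Thus Hopx fell and Myocd rose with separate ranges. Gata4 was 0.02 ± 0.13, Tbx20 -0.14 ± 0.14 and Hand1 0.35 ± 0.13 (adjusted p = 0.139), none of them called.

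In calcium handling, 3 of 19 genes (15.8%) were lower and 1 (5.26%) higher, against 4.55% and 1.01% of all genes (median -0.20). After quantile normalization again 2 were lower and 2 higher. The lower count was 0 without Nkx2-5 KO replicate 1 and 1 without Nkx2-5 KO replicate 2 or without double KO replicate 1 or 2. Cacna1c, the main calcium channel pore of working muscle, rose to 10.90, 10.96 and 11.01 in double KO hearts, against 10.17, 9.80 and 9.85 in Nkx2-5 KO hearts (1.02 ± 0.13, adjusted p = 0.00115). Its relative Cacna1d, as given above, stood lower. Of 23 potassium, sodium and other channels and connexins, 3 (13.0%, against 4.55% of all genes) were lower, namely Hcn4, Cacna2d2 and Kcnj5. The higher count was 0 (median 0.03), and after quantile normalization again 3 were lower and 1 higher. Kcnj5, a subunit of the acetylcholine-gated potassium channel of atrial muscle, read 8.71, 8.66 and 8.16 in double KO hearts and 9.81, 9.44 and 9.86 in Nkx2-5 KO hearts (-1.19 ± 0.15, adjusted p = 0.00111).

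Of 34 FGF, Wnt, Notch and BMP ligands and targets, 5 were lower and 3 higher, 23.5% in all against 5.56% of all genes (median -0.04). After quantile normalization again 4 were lower and 4 higher. The lower count was 3 without Nkx2-5 KO replicate 1 or 2, and the higher count was 0 without Nkx2-5 KO replicate 3 and 1 without Nkx2-5 KO replicate 1, without double KO replicate 2 or with only the 6 arrays compared. Fgf10, the growth factor of second heart field progenitors, read 8.84, 9.20 and 8.98 in double KO hearts and 10.19, 10.17 and 10.27 in Nkx2-5 KO hearts (-1.20 ± 0.26, adjusted p = 0.0174). It was the single called gene of 26 of that field (3.85%, against 5.56% of all genes), where 1 was lower and 2 higher after quantile normalization again. Its ranges were separate, yet the call ended without Nkx2-5 KO replicate 1 (0.0588), 2 (0.0559) or 3 (0.0506) or double KO replicate 1 (0.0521). Etv5, a target of FGF signals, was 1.01 ± 0.22 higher (adjusted p = 0.0202), and was not called without Nkx2-5 KO replicate 3 (0.0605), without double KO replicate 3 (0.0524) and with only the 6 arrays compared (0.0519).

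Genes of DNA replication and the cell cycle formed the list with the highest share of called members, 21 of 32 (65.6%) lower and 0 higher, against 4.55% and 1.01% of all genes. The median change was -0.76, and after quantile normalization again it was -0.64 with 17 members lower. Rrm2, a subunit of the enzyme that makes DNA building blocks, read 9.48, 9.15 and 10.46 in double KO hearts and 11.15, 11.49 and 11.08 in Nkx2-5 KO hearts (-1.54 ± 0.25, adjusted p = 0.00438). Kif11, a motor of the mitotic spindle, read 9.84, 10.18 and 10.62 in double KO hearts and 11.52, 11.55 and 11.40 in Nkx2-5 KO hearts (-1.28 ± 0.16, adjusted p = 0.000885). Both genes had separate ranges, with double KO replicate 3 the nearest to the Nkx2-5 KO arrays. Plk1, a mitotic kinase, was at 9.18, 9.31 and 9.75 in double KO hearts and 10.36, 10.69 and 10.34 in Nkx2-5 KO hearts (-1.05 ± 0.16). Pcna, the sliding clamp of the replication fork, read 12.05, 11.80 and 12.20 in double KO hearts and 12.71, 12.89 and 12.71 in Nkx2-5 KO hearts (-0.76 ± 0.11, adjusted p = 0.00215). The remaining lower members ran from Mki67 (-1.18 ± 0.24), the proliferation marker, to Cdk4 (-0.36 ± 0.09), and took in licensing factors (Mcm3, Mcm5, Mcm6, Mcm7), cyclins (Ccna2, Ccnb2, Ccnd1, Ccne2), Cdk1, Aurka, Aurkb, Bub1, Rrm1, Tyms and Top2a.

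Averaged over the 32 genes, double KO arrays stood at 9.91, 9.95 and 10.52 and Nkx2-5 KO arrays at 10.76, 10.93 and 10.67, so the groups did not overlap but double KO replicate 3 lay close to the Nkx2-5 KO arrays. The lower count was 11 without Nkx2-5 KO replicate 1, Nkx2-5 KO replicate 2 or double KO replicate 2, 24 without double KO replicate 3 and 8 with only the 6 arrays compared. The uncalled members were Mcm2, Mcm4, Cdc6, Ccne1, Ccnd2, Cdk2, Cdt1, Orc1, Tk1 and the inhibitor genes Cdkn1b and Cdkn1c. In Tbx5 KO hearts against WT, the same list had 1 lower and 2 higher members and a median of -0.13. Of all genes, 1.31% were called lower and 0.998% higher in that comparison. The difference between the Tbx5 effects was itself called for 2 of the 32, Kif11 (-1.43 ± 0.22, adjusted p = 0.0136) and Aurkb (-1.05 ± 0.20, adjusted p = 0.0416), of which Aurkb lost its call in 14 of 19 alternatives. Histone genes that are read during DNA replication split. Of 14, 3 (21.4%) were higher and 2 (14.3%) lower, against 1.01% and 4.55% of all genes. H2bc4 rose to 12.28, 12.75 and 11.84 in double KO hearts, against 9.90, 10.84 and 10.60 in Nkx2-5 KO hearts (1.84 ± 0.32), and H1f5 fell by 0.95 ± 0.15. Histone genes are near-identical copies of each other, so a probe set may read several.

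**Figure D3:**
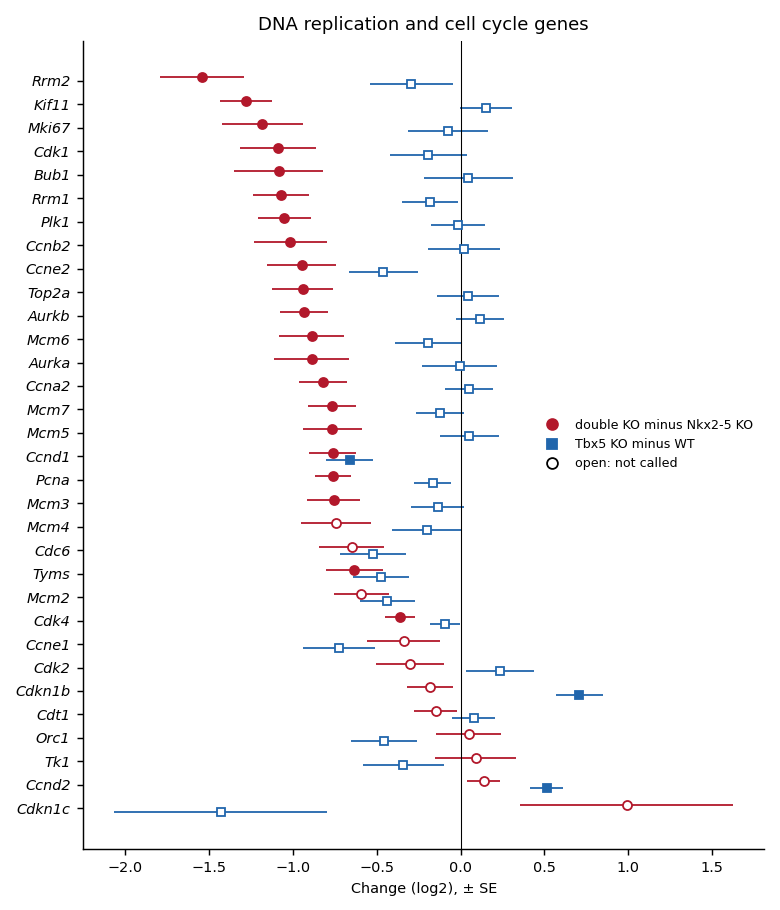
Log2 change ± SE of the 32 measured genes of DNA replication and the cell cycle, for double KO minus Nkx2-5 KO (circles) and Tbx5 KO minus WT (squares), ordered by the first. Open symbols were not called. In double KO hearts 21 members are lower, from Rrm2 at -1.54 to Cdk4 at -0.36. In Tbx5 KO hearts against WT 1 member is lower and 2 are higher. The difference between the changes was called for 2 of the 32.

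Fewer members were called in metabolism and adhesion than among the 21 lower cell cycle genes. Of 26 genes of the citric acid cycle and fatty acid oxidation, 6 (23.1%, against 4.55% of all genes) were lower and 0 higher (median -0.23). Among these 6 were Idh3a (-0.76 ± 0.11) and Fh1 (-0.74 ± 0.12) of the citric acid cycle and Hadhb (-0.75 ± 0.12) of fatty acid oxidation. That count was 10 with array weights, and 3 after quantile normalization again, with only the 6 arrays compared and without Nkx2-5 KO replicate 1 or double KO replicate 2 or 3. Among 25 glycolysis and hypoxia genes limma called 0 (median 0.03), with 1 higher at an unadjusted p under 0.05, as were 1759 of all 19938 genes. Of 24 semaphorins, ephrins and adhesion genes, 4 (16.7%) were lower and 1 (4.17%) higher, against 4.55% and 1.01% of all genes. Vcam1, a cell adhesion receptor of early muscle, read 9.47, 9.18 and 8.78 in double KO hearts and 11.15, 10.78 and 10.92 in Nkx2-5 KO hearts (-1.81 ± 0.24, adjusted p = 0.00127). Alcam, another adhesion receptor of early heart muscle, read 9.49, 8.76 and 9.38 in double KO hearts and 10.92, 10.83 and 11.14 in Nkx2-5 KO hearts (-1.75 ± 0.17, adjusted p = 0.000161). Both adhesion genes were separate between the groups. Aldh1a1, a retinoic acid enzyme, fell by 1.43 ± 0.16 as the single called member of 22 genes of retinoic acid and axial patterning. The proto-oncogene Myc (-0.88 ± 0.13) was the single called gene of 19 immediate early genes, and the chaperone gene Hsph1 (-0.69 ± 0.12) of 22 stress genes. These single calls were near the 5.56% called among all genes. Fn1 and Lama4 were the lower members of 32 extracellular matrix genes (6.25%, against 4.55% of all genes). Their calls ended in 10 and 7 of 20 alternatives.

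The genes that rose most were Plagl1, H3c15, Tdgf1 and Cxcl12. Tdgf1, which encodes the Nodal coreceptor Cripto of the outflow region, read 12.59, 12.86 and 12.61 in double KO hearts and 10.33, 11.04 and 10.23 in Nkx2-5 KO hearts (2.15 ± 0.31, 4.43-fold, adjusted p = 0.00237). Cxcl12, a chemokine that guides migrating cells and vessels, read 11.45, 11.24 and 10.98 in double KO hearts and 8.84, 9.59 and 8.89 in Nkx2-5 KO hearts (2.11 ± 0.29, 4.33-fold, adjusted p = 0.0017). Tnc, the matrix glycoprotein tenascin C, read 11.04, 11.36 and 11.59 in double KO hearts and 9.28, 9.99 and 9.20 in Nkx2-5 KO hearts (1.84 ± 0.22, 3.57-fold, adjusted p = 0.000865). Among the Nkx2-5 KO arrays replicate 2 was the highest each time. Plagl1, an imprinted zinc finger gene, was even at 11.64, 11.76 and 11.64 in double KO hearts but spread over 8.25, 10.52 and 7.67 in Nkx2-5 KO hearts (2.87 ± 0.51, adjusted p = 0.00703). It read 11.94, 12.51 and 12.08 in WT hearts and 12.27, 12.58 and 12.21 in Tbx5 KO hearts. The Nkx2-5 KO arrays were thus the group that stood apart for Plagl1. Of 23 imprinted genes, 2 (8.7%, against 1.01% of all genes) were higher and 0 lower, the other being the long noncoding RNA Meg3, at 12.95, 12.70 and 12.51 in double KO hearts and 11.68, 11.88 and 11.71 in Nkx2-5 KO hearts (0.97 ± 0.18).

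Further rises were Lrrc2 (1.68 ± 0.24), Esm1, an endothelial proteoglycan (1.68 ± 0.32), Prnp, the prion protein gene (1.32 ± 0.22), Tanc2, a scaffold protein (1.26 ± 0.22), and Scn7a, a sodium channel relative (1.24 ± 0.16). H3c15 (2.19) lost its call without Nkx2-5 KO replicate 1 (0.0913) or 3 (0.0665), without double KO replicate 2 (0.0727) and with only the 6 arrays compared (0.0793). H2bc8 (1.56 ± 0.30) lost it without Nkx2-5 KO replicate 1 (0.0541) or double KO replicate 2 (0.0516).

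**Figure D4:**
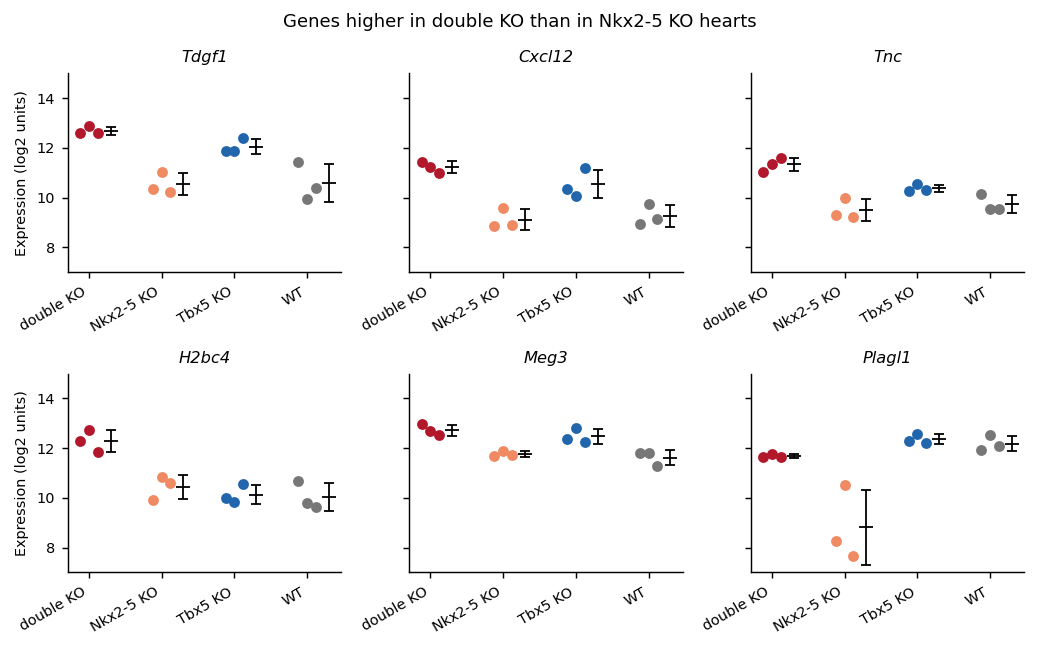
Expression level (log2 units) of 6 genes higher in double KO than in Nkx2-5 KO hearts. Each dot is 1 array, in the order double KO, Nkx2-5 KO, Tbx5 KO and WT, and the bar beside the dots is the mean ± SD of 3 arrays. Tdgf1 lies at 12.59 to 12.86 in double KO hearts and at 10.23 to 11.04 in Nkx2-5 KO hearts, and Plagl1 spreads from 7.67 to 10.52 in Nkx2-5 KO hearts.

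Markers of other cells in or near the dissected heart were examined beside these changes. Of 12 erythroid markers, 2 were lower (Hbb-bh1 and Hba-x, 16.7%, against 4.55% of all genes) and 0 higher, with a median of -0.64. After quantile normalization again limma called 0 of the 12, with 4 lower and 0 higher at an unadjusted p under 0.05. By that measure 1895 of all 19938 genes were lower and 2208 higher. The mean of the 12 was 9.24, 8.99 and 9.39 on double KO arrays and 10.22, 9.43 and 10.28 on Nkx2-5 KO arrays. The call of Hba-x ended in 9 of 20 alternatives, with adjusted p up to 0.15 (without double KO replicate 2). In the endocardium and endothelium list, 4 of 27 (14.8%, against 4.55% of all genes) were lower and 0 higher. The list, whose lower members were Npr3, Nfatc1, Tek and Ramp2, had a median of -0.19. Of 20 alternatives, the call ended in 14 for Tek (adjusted p = 0.048), 5 for Ramp2, 2 for Npr3 and 0 for Nfatc1. The mean of the list was 9.27 to 9.33 on double KO arrays and 9.45 to 9.59 on Nkx2-5 KO arrays. The count of 4 lower members was 2 after quantile normalization again or without Nkx2-5 KO replicate 1, 2 or 3 or double KO replicate 3, and 1 without double KO replicate 2. The endothelial markers Pecam1, Cdh5, Kdr and Tie1 were uncalled, with Cdh5 at 10.76 to 11.11 in double KO hearts and 11.08 to 11.29 in Nkx2-5 KO hearts, while Nfatc1, a factor of the endocardium, fell by 0.87 ± 0.17. The part of erythroid and endocardial cells in the other falls was not tested.

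Of 16 epicardial markers, 2 (12.5%, against 4.55% of all genes) were lower and 0 higher. The lower ones were Aldh1a1 and Gata5, of which Gata5 lost its call in 4 of 20 alternatives. Wt1, the defining epicardial factor, was at 8.85 to 9.10 in double KO hearts and 9.44 to 9.74 in Nkx2-5 KO hearts (-0.62 ± 0.19, adjusted p = 0.0776). Foregut and visceral endoderm had 1 of 27 (3.7%, against 1.01% of all genes) higher (Apoa4, 0.32 ± 0.08, adjusted p = 0.0463, lost in 14 of 19 alternatives). Trophoblast and decidua had 1 of 25 (4.0%) lower, near the 4.55% of all genes. That member, Prl3d3, a placental hormone gene, was at 5.61, 4.98 and 5.57 in double KO hearts and 5.94, 7.40 and 6.72 in Nkx2-5 KO hearts, near the bottom of the range of levels (adjusted p = 0.0497, lost in 13 of 19 alternatives). By limma, 0 members were called among 20 neural markers (4 higher and 2 lower at an unadjusted p under 0.05), 21 pharyngeal mesenchyme and neural crest markers (1 and 2), 18 markers of other blood cells (0 and 3), 16 genes of the p53 response (1 and 0) and 10 widely used reference genes (1 and 3). At that unadjusted threshold, 1759 of all 19938 genes were higher and 2564 lower. Among the other blood cell markers, the platelet gene Pf4 had a change of -2.70 ± 0.88 (adjusted p = 0.0962) and overlapping groups, at 6.87, 6.57 and 6.54 in double KO hearts and 11.44, 6.51 and 10.13 in Nkx2-5 KO hearts. In pharyngeal mesenchyme, Nkx2-5 KO replicate 2 stood apart, with a mean of 9.29 over 5 markers, against 8.46 to 8.55 on double KO arrays and 8.50 and 8.57 on the other Nkx2-5 KO arrays. That array was also the highest over 5 neural markers, at 9.15. The double KO arrays stood there at 8.64 to 8.81 and the other Nkx2-5 KO arrays at 8.69 and 8.54. Without Nkx2-5 KO replicate 2, Vsnl1, Cacna2d2, Bmp10, Nppa, Tdgf1, Cxcl12 and Tnc all stayed called.

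Hearts that still had Nkx2-5 give the same removal of Tbx5 on other arrays, Tbx5 KO against WT, which share no array with the comparison above. In that comparison 461 genes (2.31%) were called, 262 lower (1.31%) and 199 higher (0.998%). The total was 216, 294 and 246 without Tbx5 KO replicate 1, 2 and 3, and 256 and 212 without WT replicate 1 and 3. Of the 907 genes lower in double KO hearts, 744 (82.0%) were also lower in Tbx5 KO than in WT hearts, where 47.5% of all genes were, and their median change there was -0.23. Of these genes, 118 were called lower there, which is 13.0% of the 907 and 45.0% of the 262. Of the 202 higher genes, 177 (87.6%) were higher in Tbx5 KO than in WT hearts, where 52.5% of all genes were, with a median of 0.24, and 40 were called higher there (19.8% of the 202 and 20.1% of the 199). The shares of all genes were not matched for signal level. The standard deviation over probe sets was smaller on Tbx5 KO arrays (2.13, 2.13 and 2.16) than on WT arrays (2.17, 2.19 and 2.18) as well. How far signal level made the directions of the 2 comparisons alike was not tested. Vsnl1 changed by -4.99 ± 0.19 without Nkx2-5 and by -3.67 ± 0.19 with it, a difference of -1.31 ± 0.26 that was not called (adjusted p = 0.0502). Bmp10 changed by -3.52 ± 0.21 without Nkx2-5 and by -3.07 ± 0.21 with it, and Nppa by -2.59 ± 0.26 and -3.31 ± 0.26 in that order. Their differences were -0.45 ± 0.30 (adjusted p = 0.741) and 0.72 ± 0.37 (adjusted p = 0.618).

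**Figure D5:**
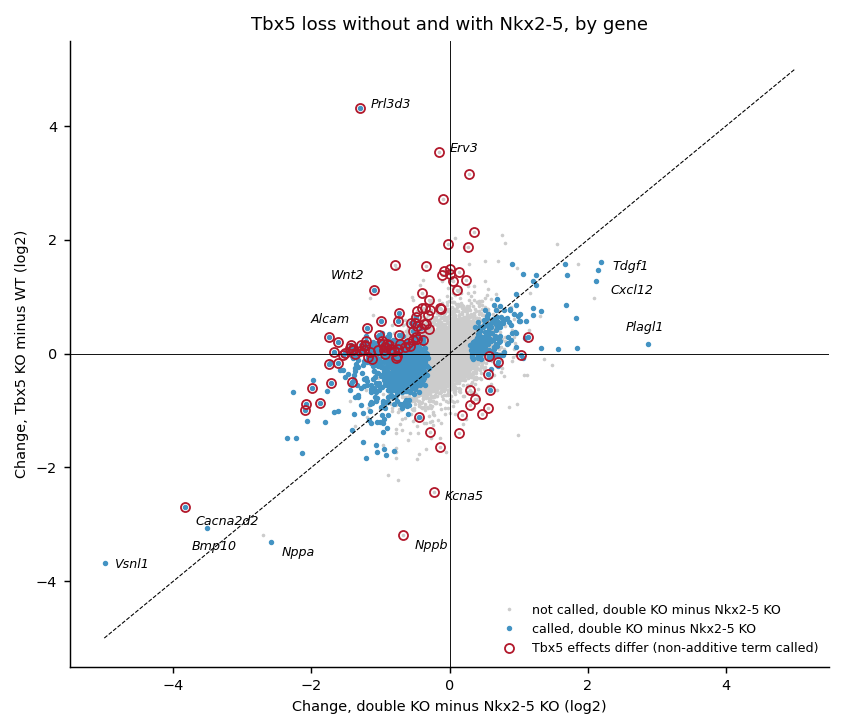
Log2 change with Tbx5 loss in hearts lacking Nkx2-5 (x axis, double KO minus Nkx2-5 KO) and in hearts with Nkx2-5 (y axis, Tbx5 KO minus WT), 1 dot for each of 19938 genes. Blue dots were called on the x axis, red rings mark the 109 genes whose 2 changes differed, and the dashed line is equality. Vsnl1, Cacna2d2, Bmp10 and Nppa lie low on both axes, and Wnt2 lies at -1.1 on the x axis and 1.12 on the y axis.

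The change with Tbx5 loss differed between hearts without and with Nkx2-5 for 109 genes (0.547%), of which 91 had the more negative change without Nkx2-5 (0.456%) and 18 the more positive (0.0903%). By pattern, 51 were called lower without Nkx2-5 alone, 28 were called higher with Nkx2-5 alone and 11 called lower with Nkx2-5 alone. Another 7 were called in the same direction in both settings and 6 in opposite directions. Of these 6, Wnt2 and Bmp5 kept their call without Nkx2-5 in all 20 alternatives. That call ended for Prl3d3 in 13 of 19 alternatives, and for Tube1 in 8, Htatsf1 in 7 and Ccn2 in 6 of 20. The count of 109 genes was 264 without double KO replicate 3 and 48 without Nkx2-5 KO replicate 1. It was 68 without double KO replicate 1, 59 without double KO replicate 2, 58, 67 and 55 without Tbx5 KO replicate 1, 2 and 3, and 68 and 67 without WT replicate 1 and 3. Wnt2 was one of the genes with opposite directions, at 8.29, 8.04 and 7.50 in double KO hearts and 8.90, 8.93 and 9.30 in Nkx2-5 KO hearts, but 9.83, 9.73 and 10.02 in Tbx5 KO hearts and 8.58, 8.62 and 9.02 in WT hearts. It fell without Nkx2-5 (-1.1 ± 0.19) and rose with it (1.12 ± 0.19), a difference of -2.22 ± 0.27 (adjusted p = 0.00443). Bmp5, a BMP ligand, did the same on a smaller scale (-0.50 ± 0.09 and 0.55 ± 0.09). Alcam changed by -1.75 ± 0.17 without Nkx2-5 and by 0.28 ± 0.17 with it, where its levels were 12.52, 12.39 and 12.15 in Tbx5 KO hearts and 12.02, 12.11 and 12.09 in WT hearts.

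Several genes that fell in both settings fell further without Nkx2-5. Cacna2d2 changed by -3.83 ± 0.15 without Nkx2-5 and -2.69 ± 0.15 with it (difference adjusted p = 0.0406, lost in 10 of 19 alternatives, among them without 9 of the 12 arrays in turn). Its mean was 8.33 in double KO and 8.51 in Tbx5 KO hearts, but 12.16 in Nkx2-5 KO and 11.20 in WT hearts. The larger fall of Cacna2d2 thus went with a higher level in Nkx2-5 KO than in WT hearts. Crip2, a LIM domain protein of heart muscle, read 9.19, 9.06 and 9.28 in double KO hearts and 11.08, 10.78 and 10.80 in Nkx2-5 KO hearts (-1.71 ± 0.11), and changed by -0.52 ± 0.11 with Nkx2-5 present, a difference of -1.19 ± 0.16 (adjusted p = 0.00666). Nppb and Kcna5 were among the 11 genes called lower with Nkx2-5 alone. Nppb read 9.16, 9.79 and 9.07 in double KO hearts and 10.14, 9.93 and 9.96 in Nkx2-5 KO hearts, but 10.08, 9.78 and 8.99 in Tbx5 KO hearts and 12.80, 13.13 and 12.49 in WT hearts (difference 2.52 ± 0.37, adjusted p = 0.00923). The atrial potassium channel gene Kcna5 read 8.18, 7.72 and 8.06 in double KO hearts and 7.95, 8.09 and 8.62 in Nkx2-5 KO hearts, against 7.71, 7.65 and 7.16 in Tbx5 KO hearts and 9.82, 9.94 and 10.08 in WT hearts (difference 2.21 ± 0.27, adjusted p = 0.00443). For both genes the Nkx2-5 KO arrays already stood below all WT arrays, and the level in WT was the one that stood apart from the other 3 groups.

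Placental genes made up part of the most negative differences. Prl3d3 was at 10.56, 9.71 and 9.40 in Tbx5 KO hearts and 5.25, 5.79 and 5.67 in WT hearts, a difference between the Tbx5 effects of -5.62 ± 0.49. In the trophoblast and decidua list, 5 of 25 genes were called higher in Tbx5 KO than in WT hearts, against 0.998% of all genes. In double KO against Nkx2-5 KO hearts 1 was called. The difference was called negative for 4, against 0.456% of all genes. These RNAs mark tissue outside the heart, and their part in other differences of the Tbx5 effects was not tested.

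Tbx5 lies on chromosome 5 beside Tbx3. Of the 16 measured genes nearest to Tbx5, 8 on each side in RefSeq order, Tbx3 was the single one called (-0.88 ± 0.16, adjusted p = 0.0076), near the 5.56% of all genes, and the other 15 changed by -0.31 (Rbm19) to 0.24. In Tbx5 KO hearts against WT, Tbx3 was -0.48 ± 0.16 (adjusted p = 0.153).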

How the data were processed

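Per the labels' protocols, RNA came from a PicoPure kit and was amplified by NuGEN Ovation chemistry before biotin labelling. The deposited table holds 1 log2 expression value per probe set and array, as the authors made it. How the authors summarized and scaled the arrays is not stated in the sources used here. The log2 scale was read from the values, which run from 3.21 to 14.7, and 0 pairs of arrays were identical. Probe sets were named from the platform annotation (21789 with exactly 1 symbol, 1621 with several, 12147 with none listed). Of those with 1 symbol, 21698 matched RefSeq (GRCm38.p6). The probe set with the highest mean was kept for the 999 genes with several, and no filter was set on dim genes.

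The linear model held 1 mean for each of the 4 groups over the 12 arrays (limma 3.58.1, lmFit and eBayes, R 4.3.3), with 8 residual and 4.51 prior degrees of freedom. The contrasts were double KO minus Nkx2-5 KO, Tbx5 KO minus WT, and the difference of these. The fitting script was tested on simulated data. The number of arrays limits the precision. Tables were made in Python 3.11.15 (pandas 2.3.3, numpy 2.4.6) and plots with matplotlib 3.10.9.

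The comparison and the 29 gene lists (644 of 703 entries measured) were chosen with earlier results of these data known. Named genes were Tbx5, Nkx2-5 and 11 cardiac genes, the 12 largest rises and 12 largest falls with separate ranges (predicted genes, clones, small RNAs and receptors of smell left out), up to 5 called members of each list, the 6 most positive and 6 most negative differences of Tbx5 effects, and the neighbours of Tbx5. Other names, such as Crip2 and Bmp5, were chosen after their values were seen. Alternatives were other scalings, an intensity trend, array weights, a replicate block, every probe set, a filter on dim genes, the 6 arrays alone and each array left out.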

Additional observations from a re-analysis of the deposited data

Results flagged for a closer look

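The change with Tbx5 loss differed between hearts without Nkx2-5 (double KO minus Nkx2-5 KO) and hearts with it (Tbx5 KO minus WT), by the test of that difference in the limma fit, for 34 genes given here. A negative difference means that the change with Tbx5 loss was more negative, or less positive, without Nkx2-5. Of these 34, 19 kept their call under every alternative run and 15 lost it under at least 1.

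Among signals and adhesion genes, the differences were -2.22 for Wnt2, -1.31 for Wnt5a, -1.40 for Lef1, -1.05 for Bmp5, 1.23 for Ccn2, -2.04 for Alcam and 0.92 for Sema6d. Ccn2 lost its call when any 1 of 5 arrays was left out (adjusted p up to 0.0606) and Sema6d in 12 alternatives, 10 of them single arrays left out (up to 0.12). For Wnt5a (0.14 ± 0.13 without Nkx2-5, 1.44 ± 0.13 with it) and Lef1 (0.00 ± 0.13 and 1.40 ± 0.13) the called change was the rise in Tbx5 KO hearts.

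Among genes of muscle and membrane, the differences were -1.14 for Cacna2d2, -1.44 for Cacna1d, -1.19 for Crip2, -0.91 for Apobec2, -1.01 for Sphkap, -1.20 for Atp8a1, -1.09 for Ppp1r17, -1.39 for Fras1, 0.68 for Lpar3, 2.52 for Nppb, 2.21 for Kcna5 and 1.26 for Casq2. Calls ended for Cacna2d2 in 10 alternatives (adjusted p up to 0.11), Cacna1d in 5 (0.0626), Apobec2 in 8 (0.0802), Sphkap in 9 (0.0906), Atp8a1 in 10 (0.0959), Ppp1r17 in 6 (0.0647), Fras1 in 9 (0.0955), Lpar3 in 15 (0.118) and Casq2 in 10 (0.0991). Crip2, Nppb and Kcna5 kept theirs. Casq2, the calcium store protein, read 7.01, 7.27 and 7.53 in double KO hearts and 6.94, 7.14 and 7.17 in Nkx2-5 KO hearts, and 7.66, 7.20 and 7.09 in Tbx5 KO hearts and 8.45, 8.53 and 8.21 in WT hearts.

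Among transcription factors and patterning genes, the differences were 1.52 for Shox2, 1.52 for Nr2f1 and 1.5 for Mab21l2. Tspan8, a membrane protein gene, had 1.5. Shox2, a factor of the sinus node, read 7.0, 7.5 and 7.42 in double KO hearts and 6.74, 6.67 and 7.11 in Nkx2-5 KO hearts, and 6.52, 6.53 and 6.41 in Tbx5 KO hearts and 7.48, 7.40 and 7.74 in WT hearts. Nr2f1, a nuclear receptor, read 9.10, 8.82 and 8.70 in double KO hearts and 8.70, 8.41 and 9.12 in Nkx2-5 KO hearts, against 7.91, 8.07 and 8.20 in Tbx5 KO hearts and 9.48, 9.46 and 9.41 in WT hearts.

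Cell division genes Kif11 (-1.43) and Aurkb (-1.05), and Htatsf1 (-0.87) and Tube1 (-1.14), also differed. Aurkb lost its call in 14 alternatives (adjusted p up to 0.115) and Htatsf1 in 3 (0.0606).

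Among placental and other genes higher in Tbx5 KO than in WT hearts, the differences were -5.62 for Prl3d3, -3.69 for Erv3, -2.87 for Prl8a2, -2.82 for Prl2c5, -2.35 for S100a6, -1.89 for Sparcl1 and -1.02 for Prl4a1. S100a6 lost its call in 7 alternatives (adjusted p up to 0.084) and Prl4a1 in 11 (0.11). Erv3 was at 7.24 to 7.65 in double KO hearts and 7.50 to 7.64 in Nkx2-5 KO hearts, and at 10.4 to 11.3 in Tbx5 KO hearts and 7.16 to 7.60 in WT hearts.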

How the results depend on the processing

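The count of 1109 called genes was 2481 with weighted arrays (array weights), 570 with the 6 arrays alone and 521 to 1255 without any 1 array. The 907 lower genes were 1652, 462 and 432 to 1032 under these in turn, and 583 after quantile normalization again. The 202 higher genes were 829 with array weights, 108 with only the 6 arrays, 81 to 223 without any 1 array and 414 after quantile normalization again. The 461 genes of Tbx5 KO against WT were 933 with array weights and 212 to 551 without 1 array. The 109 genes whose Tbx5 effects differed were 343 with array weights, 61 with a replicate block and 48 to 264 without 1 array. The causes of these shifts were not tested. Fits without 1 array or with 6 arrays have fewer degrees of freedom, and counts without 1 array lay on both sides of 1109 (1255 without double KO replicate 3). With the replicate block the first total was 873 (733 lower, 140 higher). Same-numbered double KO and Nkx2-5 KO arrays deviated with correlations of 0.02, -0.16 and -0.27, and other pairs with -0.14 to 0.25. Deviations from means of 3 arrays cannot settle whether the numbers pair the samples. Named genes kept direction and side of the threshold in 1281 gene-and-array omissions and lost their call in 220, and in other alternatives in 905 and 83. Values that turned sign were all uncalled: Gata4 (-0.092 with array weights, -0.12 to 0.11 without 1 array), Isl1 (0.093 after quantile normalization again, -0.43 to 0.14 without 1 array), Tbx20 (0.0035 after quantile normalization again), Nr2f1 (-0.038 to 0.32 without 1 array) and Prl2c5 (-0.33 to 0.23 without 1 array). Signal level limits dim genes such as Prl3d3.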
